A study of Mus musculus with 7 samples.

Results

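The genes described here encode 10 antioxidant enzymes, namely the 6 peroxiredoxins Prdx1 to Prdx6, the superoxide dismutases Sod1 and Sod2, the glutathione peroxidase Gpx4 and the catalase Cat. They were chosen by gene symbol, and each symbol matched 1 of the 25912 entries listed for every library. Polyadenylated RNA of mouse oocytes was measured by Smart-seq2, in which reverse transcription starts from the poly(A) tail, on 7 libraries of 10 oocytes each. The study asked what BYBX, a small-molecule ligand of RNA G-quadruplexes (rG4s, 4-stranded structures of G-rich RNA), does to transcripts during meiotic maturation. The groups were GV oocytes, which are arrested before meiosis resumes and still hold their germinal vesicle (2 libraries), MII oocytes matured with the solvent DMSO (3 libraries) and MII oocytes matured with BYBX (2 libraries). The study reports that BYBX lowered polar body emission and that treated oocytes which reached MII had abnormal spindles. Whether the MII groups were matched in stage was not tested. The labels call all groups control in genotype and give no treatment for GV, whereas the methods describe DMSO for GV control oocytes too. The oocytes came from 4-week-old female C57BL/6 mice killed 44 h after 5 IU of pregnant mare serum gonadotropin, and culture to MII took 16 h. BYBX was used at 1 μM in the ribosome profiling that the study sets beside these libraries, while the Smart-seq2 protocol itself states no dose. The number of animals behind each library is not given in the sources used here, so p-values measure only the spread between these libraries, which may be technical.

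Superoxide dismutases turn superoxide into hydrogen peroxide, with Sod1 mainly in the cytosol and Sod2 in the mitochondrial matrix. Peroxiredoxins remove hydrogen peroxide and organic peroxides through a reactive cysteine and are recycled mostly by thioredoxin, while catalase breaks down hydrogen peroxide in peroxisomes. Gpx4 is a selenoprotein that reduces lipid hydroperoxides with glutathione. A growing oocyte stores large amounts of mRNA, transcription is silent from the end of growth, and many stored transcripts are degraded as the oocyte matures.

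The peroxiredoxins and Gpx4 carry the residue that reacts with peroxide in a short conserved stretch, and these coding sequences are shown because they show how the family members differ. They were read from the longest protein-coding transcript of each gene in GENCODE vM21 on GRCm38 (mm10), 5′ to 3′, with the codon of the reactive cysteine or, in Gpx4, the selenocysteine in capitals. In Prdx3, Prdx4 and Prdx5 the stretch is split by an intron, so the interval is longer than the sequence. Expression was measured per gene. The codon numbers and the sequence results below describe the longest annotated transcript, which the oocytes need not have held.
Prdx1, chr4:116691811-116691837 (+), codon 52: tttacttttgtgTGTcccacggagatc
Prdx2, chr8:84970471-84970497 (+), codon 51: ttcacttttgttTGCcccacggagatc
Prdx3, chr19:60870115-60871421 (-), codon 109: ttcacatttgtgTGTcctacagaaatt
Prdx4, chrX:155332448-155334839 (-), codon 127: ttcacctttgtgTGTccaactgaaatc
Prdx5, chr19:6907668-6908002 (-), codon 96: tttacacctggcTGTtctaagacccac
Prdx6, chr1:161247356-161247382 (-), codon 47: tttaccccagtgTGCaccacagaactt
Gpx4, chr10:80054725-80054751 (+), codon 129: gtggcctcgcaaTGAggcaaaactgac
The Gpx4 codon is TGA, which is a stop codon elsewhere and is read as selenocysteine in selenoproteins. The coding sequences of the typical 2-Cys peroxiredoxins Prdx1 to Prdx4 were 65.5% to 71.0% identical in pairwise alignments. Prdx1 with Prdx2 and Prdx2 with Prdx4 were both at 71.0%.

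Because BYBX binds rG4s, the same transcripts were searched on the sense strand for a predicted rG4 motif, which is 4 runs of 3 or more G spaced by 1 to 7 bases. None of the 10 members held this motif, which was present in 17.7% of the longest transcripts of 21877 protein-coding genes. When runs of 2 G were allowed, all 10 members held a match, as did 91.3% of the genes. The matches nearest to the stricter motif had 3 runs of 3 or more G and lay in Prdx1, Prdx5 and Sod2, shown with the G runs in capitals.
Prdx1 3′ UTR, chr4:116699656-116699684 (+): GGataccctGGGaccatgtGGGtgctGGG
Prdx5 5′ UTR, chr19:6909623-6909643 (-): GGGtGGGctgcGGcagcGGGG
Sod2 3′ UTR, chr17:13015969-13015995 (+): GGGcactaGGccacaGGGcattctGGG
Matches that allow runs of 2 G were densest in Prdx5, with 9 in its transcript of 1262 bases, and in Sod1, with 4 in 641 bases. Cat, with 1 match in 2613 bases, and Prdx6, with 1 in 2387 bases, had the fewest for their length. A match describes the letters of an annotated transcript and not a structure in the oocyte. The motif TTTTAT or TTTTAAT, known from the 3′ ends of transcripts polyadenylated in the cytoplasm during maturation, was in the last 100 bases of none of the 10 transcripts, against 16.6% of the genes (sense strand only).

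The values are FPKM, fragments scaled to exon length and to the mapped fragments of the library. The authors rescaled them to an ERCC spike-in and, between batches, to GV samples. They can be read per oocyte only as far as that scaling holds and poly(A) tails were captured alike in all groups. Tail length was not measured here, so fewer molecules and shorter tails cannot be told apart. Total FPKM lay at 402113 to 489569 in GV, 109732 to 127254 in MII with DMSO and 201482 to 246710 in MII with BYBX, and sequencing depth is unknown. The 10 oocyte markers listed, such as Zp3 and Gdf9, were detected in every group and summed to 11445 to 13825 FPKM in GV, 2521 to 3254 in MII with DMSO and 5893 to 7083 in MII with BYBX. Of the 12 markers of granulosa and cumulus cells, 9 stayed under 1 FPKM in every library, Ptx3 was listed at 0, and the list summed to 8.24 to 15.5, 1.70 to 2.26 and 3.37 to 3.60 FPKM in the same order, which moved with the members and whose part in the results was not tested. The 6 erythrocyte markers listed, from a cell rich in Prdx2 and Cat, summed to at most 0.137 FPKM, and the 5 leukocyte markers to at most 1.81. Fold changes below are differences of log2(FPKM + 1), which understate the change of genes near or under 1 FPKM, and were tested with limma over 9202 entries. Each library was made from 10 oocytes, and within it a change in all oocytes and a change in some of them cannot be told apart.

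Among the 10 members, Prdx1 and Prdx2 made up most of the FPKM in every library. In GV oocytes the mean levels fell in the order Prdx1, Prdx2, Prdx5, Gpx4, Sod1, Prdx3, Sod2, Prdx6, Prdx4 and Cat. The GV libraries of Gpx4 and Sod1 overlapped, as did those of Prdx6 and Prdx4, and the other neighbours did not. In MII with DMSO the order was Prdx1, Prdx2, Sod2, Prdx5, Prdx6, Prdx4, Sod1, Gpx4, Prdx3 and Cat, with libraries overlapping between each pair of neighbours from Sod2 to Gpx4. In MII with BYBX it was Prdx1, Prdx2, Prdx5, Gpx4, Sod1, Prdx3, Sod2, Prdx4, Prdx6 and Cat, and neighbours overlapped from Prdx5 to Sod1 and from Sod2 to Prdx6.

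**Figure D1:**
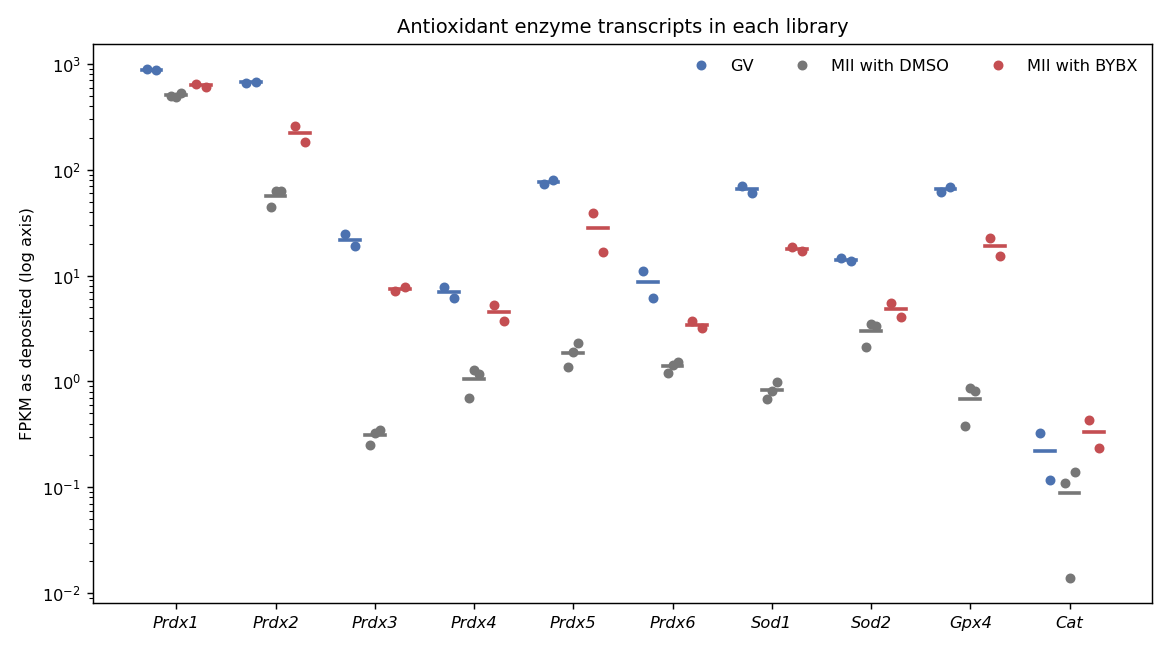
FPKM of each member in the 7 libraries as deposited (points, log axis) with the mean of each group (short lines), for GV (2 libraries), MII with DMSO (3) and MII with BYBX (2). Apart from Cat, each member was highest in GV, lowest in MII with DMSO and between them in MII with BYBX, Gpx4 at 65.4, 0.680 and 19.0 FPKM and Prdx1 at 885, 507 and 631 FPKM, on the deposited scale (as a share of the library total, Prdx1 is highest in MII with DMSO and lowest in GV, Prdx4 is highest in MII with BYBX, and the mean of Sod2 is lowest in MII with BYBX).

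All 9 members that could be tested fell from GV to MII with DMSO on the deposited scale, at a limma adjusted p under 0.05, where 88.3% of all entries tested were also lower and 0.272% were higher. Their median log2 change was -3.56, against -1.83 over all entries tested. For all 9 the GV and MII libraries did not overlap, which was true of 92.5% of all entries in that direction. When libraries were scaled to equal totals, 7 members were lower and Prdx1 higher, and over all entries 4557 were lower and 2141 higher. When they were centred on their medians, 5 members were lower and Prdx1 higher, with 2456 entries lower and 4494 higher. Around the shift of all entries the members spread widely, with Gpx4, Sod1, Prdx5, Prdx3 and Prdx2 below the median of all entries, Prdx1 well above it, and Prdx4, Prdx6 and Sod2 close to it.

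**Figure D2:**
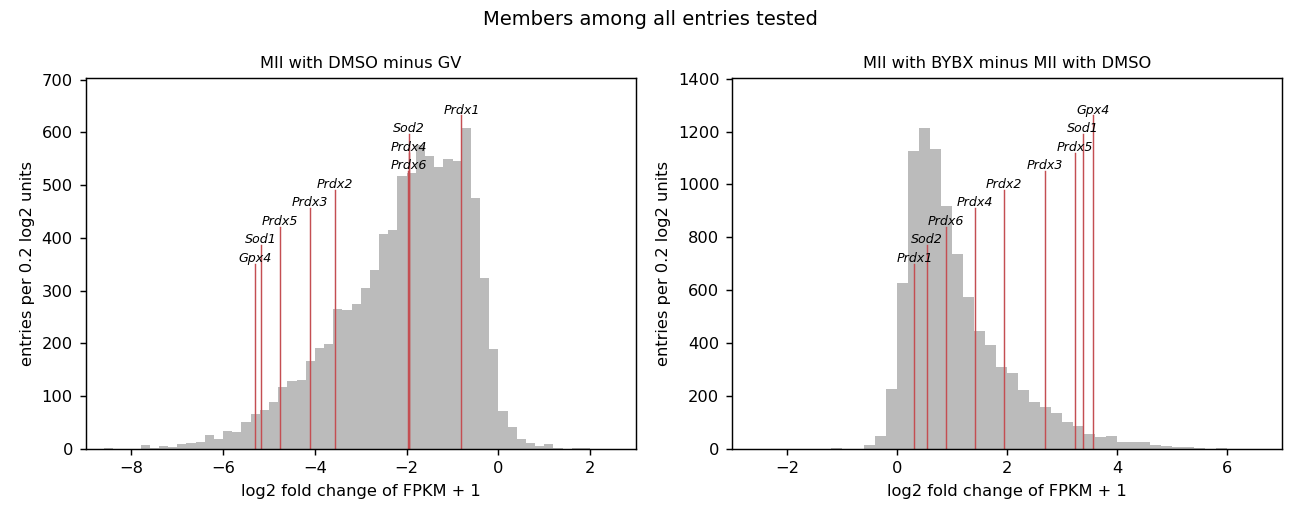
Histograms of the log2 fold change of FPKM + 1 over the 9202 entries tested (x axis, log2 units; y axis, entries per bin of 0.2 log2 units), for MII with DMSO minus GV and for MII with BYBX minus MII with DMSO, with the 9 members tested as lines. Gpx4 (-5.31, 3.56) and Sod1 (-5.18, 3.37) lie in the tails of both distributions and Prdx1 (-0.80, 0.32) on the other side of both medians (-1.83, 0.84), and at equal library totals Prdx1 changes sign in both, as Sod2 does in the second.

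Gpx4, the lipid hydroperoxide reductase, changed about as much as Sod1. These were the members with the largest changes of log2(FPKM + 1) in all 3 comparisons with all 7 libraries on the deposited scale. Without the added 1, the ratio of means of MII with BYBX to MII with DMSO was 28.0 for Gpx4, 24.2 for Prdx3 and 21.6 for Sod1. Gpx4 was at 61.9 and 68.8 FPKM in GV, at 0.377, 0.858 and 0.804 in MII with DMSO and at 22.8 and 15.3 in MII with BYBX. Every GV library was above every MII library, and the BYBX libraries lay above all DMSO libraries. The log2 change was -5.31 (SE 0.26, limma adjusted p 5.5e-10) from GV to MII with DMSO, which placed Gpx4 at percentile 2.59 of all entries tested, and 3.56 (SE 0.26, adjusted p 1.2e-07) from DMSO to BYBX, at percentile 97.6. MII with BYBX remained below GV by a log2 change of -1.75 (adjusted p 1.7e-04), which was no longer called when libraries were scaled to equal totals. Of the 50-base stretches of its transcript, 61.7% also occur in transcripts of other genes, chiefly the processed copy Gpx4-ps2, and since only uniquely mapped reads were used, its level is uncertain.

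Sod1, the cytosolic superoxide dismutase, followed Gpx4 closely. Its level was 70.1 and 60.4 FPKM in GV, 0.681, 0.819 and 0.989 in MII with DMSO, and 18.6 and 17.2 in MII with BYBX. Both BYBX libraries were far above the DMSO libraries and far below the GV libraries. The log2 changes were -5.18 (SE 0.23, limma adjusted p 3.8e-10) for DMSO against GV, 3.37 (SE 0.23, adjusted p 8.2e-08) for BYBX against DMSO and -1.81 (SE 0.25, adjusted p 8.4e-05) for BYBX against GV. Sod1 was the single member still called lower in MII with BYBX than in GV at equal library totals, with a log2 change of -0.84 (adjusted p 0.0300). Gpx4 and Sod1 were also the closest pair of members over the 7 libraries, with a Euclidean distance of 0.513 between their centred log2 values, against 0.698 for the next pair, Sod2 and Prdx6. Sod1 shares 23.1% of its 50-base stretches with the annotated gene Gm8566.

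Sod2, the mitochondrial superoxide dismutase, changed much less than Sod1. It was at 14.6 and 13.7 FPKM in GV, at 2.14, 3.50 and 3.31 in MII with DMSO, and at 5.55 and 4.02 in MII with BYBX. The fall from GV to MII with DMSO was -1.95 on the log2 scale (SE 0.25, limma adjusted p 4.4e-06), close to the median of all entries, and it was -0.34 and not called at equal library totals (adjusted p 0.175) and 0.36 under median centring. The difference between BYBX and DMSO was not called, at 0.54 (95% confidence interval 0.01 to 1.08, adjusted p 0.0662), although the libraries of these groups did not overlap, and it turned to -0.17 at equal library totals and -0.73 under median centring. In MII with BYBX Sod2 was lower than in GV, with a log2 change of -1.40 (adjusted p 5.4e-04) that lost its call at equal library totals. The ratio of means of MII with DMSO to GV was 0.211 for Sod2 and 0.0127 for Sod1.

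Prdx1, a cytosolic peroxiredoxin, was the most abundant member throughout. It measured 891 and 880 FPKM in GV, 496, 490 and 533 in MII with DMSO, and 651 and 610 in MII with BYBX. The groups did not overlap, and MII with DMSO kept 57.2% and MII with BYBX 71.2% of the GV mean. The fall from GV to MII with DMSO was -0.80 on the log2 scale (SE 0.22, limma adjusted p 0.0031), smaller than that of 80.8% of the entries tested, and turned into a rise of 1.08 (adjusted p 2.8e-04) at equal library totals and of 1.50 (adjusted p 3.3e-05) under median centring. BYBX against DMSO gave 0.32 (95% confidence interval -0.15 to 0.78, adjusted p 0.207), which was not called on the deposited scale and became a called fall of -0.58 (adjusted p 0.0180) at equal library totals. BYBX against GV gave -0.49 (95% confidence interval -0.998 to 0.0191, adjusted p 0.0792), and 0.50 at equal library totals, neither of them called. Counted from the top, Prdx1 ranked 65 and 53 among the entries in GV, 29, 28 and 28 in MII with DMSO, and 41 and 39 in MII with BYBX. These ranks within a library do not depend on its scale, and those of the 3 groups did not overlap. Of its 50-base stretches 10.9% occur in transcripts of other genes.

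Prdx2, the other abundant cytosolic peroxiredoxin, was near Prdx1 in GV and far below it in MII. Its level was 669 and 675 FPKM in GV, 44.2, 62.8 and 63.2 in MII with DMSO, and 260 and 184 in MII with BYBX. BYBX libraries lay between the other groups, with no overlap. The log2 changes were -3.56 (SE 0.27, limma adjusted p 2.1e-08) for DMSO against GV, 1.95 (SE 0.27, adjusted p 2.6e-05) for BYBX against DMSO and -1.61 (SE 0.29, adjusted p 3.5e-04) for BYBX against GV, the last of which lost its call at equal library totals. In rank Prdx2 moved from 88 and 77 in GV to 408, 298 and 308 in MII with DMSO, and it stood at 132 and 138 in MII with BYBX. Of its 50-base stretches 23.8% occur in transcripts of other genes, among them Tdpx-ps1. On the opposite strand its exons overlap those of Junb and Rnaseh2a by 349 bases, and Smart-seq2 does not keep strand. Junb stayed under 0.596 FPKM in all libraries and Rnaseh2a had group means of 6.98, 0.0302 and 1.65 FPKM in GV, MII with DMSO and MII with BYBX.

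The ratio of Prdx1 to Prdx2 within a library does not depend on how the library was scaled. It was 1.33 and 1.30 in GV, 11.2, 7.80 and 8.43 in MII with DMSO, and 2.50 and 3.31 in MII with BYBX. The groups did not overlap, and the means were 1.32 ± 0.0191 (SD, n = 2), 9.15 ± 1.82 (SD, n = 3) and 2.91 ± 0.574 (SD, n = 2). Similar ratios of Prdx1 to the other 7 members tested were also higher in every MII library with DMSO than in every GV library. They were lower in every BYBX library than in every DMSO library except for Sod2, and higher in BYBX than in GV except for Prdx4, where libraries overlapped. These ratios were looked at after the values were seen, and with 2 or 3 libraries a group an exact permutation test cannot give a p under 0.1, or under 0.333 for 2 against 2.

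Prdx3, the peroxiredoxin of the mitochondrial matrix, was at 24.5 and 18.9 FPKM in GV, at 0.250, 0.326 and 0.349 in MII with DMSO, and at 7.13 and 7.77 in MII with BYBX. MII with DMSO thus kept 1.42% of the GV mean and MII with BYBX 34.3%. The log2 changes were -4.11 (SE 0.22, limma adjusted p 1.0e-09), 2.69 (SE 0.22, adjusted p 2.8e-07) and -1.42 (SE 0.24, adjusted p 2.3e-04) for DMSO against GV, BYBX against DMSO and BYBX against GV. The last of these was not called at equal library totals. No 50-base stretch of Prdx3, Prdx4 or Cat was shared with another gene.

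Prdx5, an atypical peroxiredoxin of mitochondria, peroxisomes and cytosol, stood at 72.9 and 79.7 FPKM in GV, at 1.37, 1.89 and 2.33 in MII with DMSO, and at 39.0 and 16.9 in MII with BYBX. Relative to their mean, the BYBX libraries differed from each other more than for any other tested member, and both lay between the other groups. The log2 changes were -4.77 (SE 0.32, limma adjusted p 7.0e-09), 3.24 (SE 0.32, adjusted p 1.4e-06) and -1.53 (SE 0.35, adjusted p 0.0017) in the same order. The last value was -2.11 without the first BYBX library and -0.95 without the second, both still called, and was not called at equal library totals. Prdx5 overlaps Trmt112 by 409 exonic bases on the opposite strand, and Trmt112 had group means of 31.6, 15.3 and 26.1 FPKM, which moved with Prdx5 in direction. What share of the Prdx5 reads came from Trmt112 was not tested.

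Prdx4, the peroxiredoxin of the endoplasmic reticulum, and Prdx6, the 1-Cys peroxiredoxin that also has phospholipase activity, were low in all groups. Prdx4 was at 7.74 and 6.13 FPKM in GV, at 0.690, 1.29 and 1.18 in MII with DMSO, and at 5.28 and 3.73 in MII with BYBX. It fell by 1.95 on the log2 scale in MII with DMSO against GV (SE 0.23, limma adjusted p 2.5e-06), but gave 0.35 under median centring, and was 1.42 higher in BYBX than in DMSO (SE 0.23, adjusted p 1.4e-04), a call lost under median centring. Among the tested members Prdx4 retained the largest share of its GV mean in MII with BYBX after Prdx1, 65.0%, and its difference from GV was not called, at -0.53 (95% confidence interval -1.09 to 0.02, adjusted p 0.0779), although without the first BYBX library it was -0.74 and called (adjusted p 0.0384). At equal library totals the same difference was 0.29, also not called.

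Prdx6 was at 11.1 and 6.16 FPKM in GV, at 1.21, 1.44 and 1.52 in MII with DMSO, and at 3.73 and 3.17 in MII with BYBX. Relative to their mean, its GV libraries differed more than those of the other tested members, and the groups still did not overlap. The changes were -1.96 (SE 0.25, limma adjusted p 4.1e-06) for DMSO against GV, 0.89 (SE 0.25, adjusted p 0.0060) for BYBX against DMSO and -1.07 (SE 0.27, adjusted p 0.0034) for BYBX against GV, all near the medians of all entries. Under median centring the first became 0.34 and the second -0.38, and at equal library totals the second and the third lost their calls. The third was -0.69 without the first GV library and -1.45 without the second, both called.

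Cat was close to absent. It was at 0.325 and 0.118 FPKM in GV, at 0.111, 0.0140 and 0.140 in MII with DMSO, and at 0.431 and 0.236 in MII with BYBX. The libraries of GV overlapped with those of both other groups, and those of BYBX lay above those of DMSO. With its highest value at 0.431 FPKM, Cat did not reach the mean of 1 FPKM required for the test, and with no filter on level the limma adjusted p was 0.206, 0.0805 and 0.382 for the 3 comparisons.

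**Figure D3:**
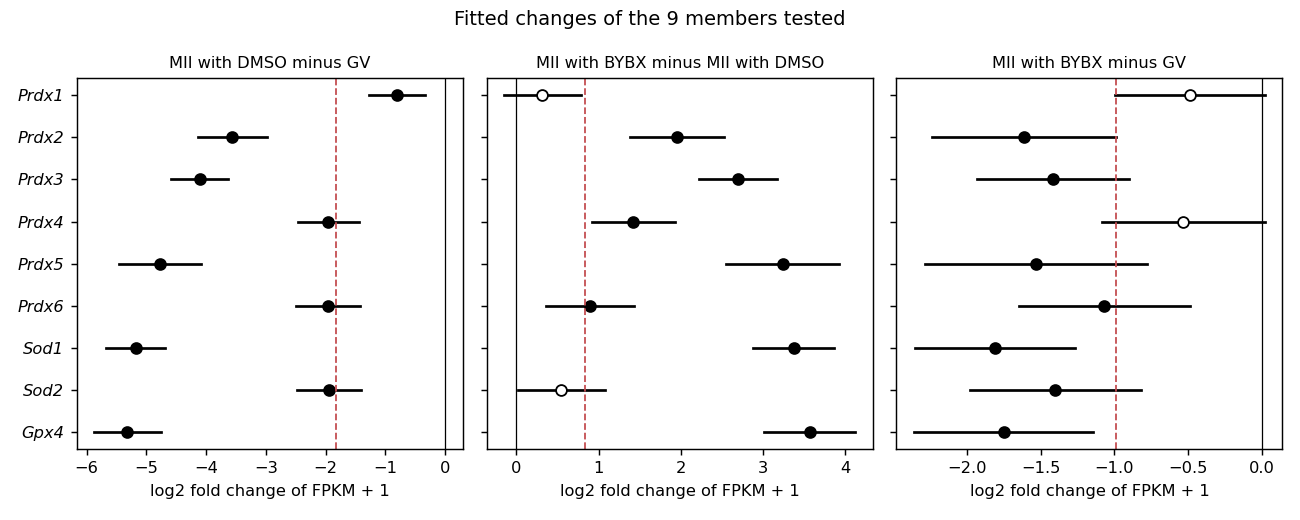
Fitted log2 fold changes of FPKM + 1 (x axis) with 95% confidence intervals for the 9 members tested in the 3 comparisons, filled where the limma adjusted p is under 0.05, with the median of all 9202 entries as a dashed line (-1.83, 0.84, -0.99). All 9 are filled in the first panel, 7 in each of the others, and the deposited scale is shown (at equal library totals Prdx1 changes sign in all 3 panels, Sod2 in the second and Prdx4 in the third, and under median centring Prdx4, Prdx6 and Sod2 also do in the first and Prdx6 in the second).

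BYBX against DMSO addressed whether the ligand altered the transcript levels that maturation leaves. On the deposited scale 7 of the 9 members tested were higher with BYBX, where 65.2% of all entries tested were higher and 0.0326% lower, and none was lower. By unadjusted limma p under 0.05 the counts were 8 members higher and 0 lower. The share of all entries past that threshold was not counted, so these counts say nothing particular to the members. At equal library totals 6 members were higher and Prdx1 lower, and over all entries 3672 were higher and 756 lower, while median centring gave 5 members higher, Prdx1 and Sod2 lower, and 1696 entries higher and 4040 lower. The median of the members was 1.95 against 0.84 over all entries. The latter was 1.29 with 0.1 added in place of 1 and 1.07 over entries of at least 5 FPKM. All 9 members were higher in every BYBX library than in every DMSO library, as were 79.0% of all entries. Gpx4, Sod1, Prdx5, Prdx3 and Prdx2 kept their direction and their call under every one of the 15 alternatives fitted for this comparison, and also for DMSO against GV. Alternatives that alter only the filter, the trend or the group not compared cannot move a fold change. In those fits direction was fixed and only the call could differ.

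In MII with BYBX against GV, 7 of the 9 tested members were lower and none higher, where 69.2% of all entries were lower and 0.315% higher. At equal library totals and under median centring Sod1 was the 1 member called lower and none was called higher, while over all entries 1222 were lower and 488 higher at equal totals and 1250 lower and 1397 higher under centring. The median of the 9 members was -1.42 against -0.99 over all entries. The latter was -1.19 with 0.1 added in place of 1 and -1.10 over entries of at least 5 FPKM. All 9 members were lower in every BYBX library, as were 82.3% of all entries. Both comparisons share libraries with that of DMSO against GV, so the calls are not independent of one another. As a share of the library total, a scale that sets aside the ERCC scaling, Gpx4, Sod1, Prdx2, Prdx3 and Sod2 were lower in every BYBX library than in every GV library (41.2% of all entries), Prdx1 and Prdx4 were higher in every BYBX library (25.1%), and Prdx5 and Prdx6 overlapped.

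Summed over the 10 members, FPKM was 1816 ± 10.3 (SD, n = 2) in GV, 572 ± 31.2 (SD, n = 3) in MII with DMSO and 938 ± 107 (SD, n = 2) in MII with BYBX. The groups did not overlap, and the two-sided exact permutation p was 0.1, 0.1 and 0.333 for the 3 comparisons, the smallest these group sizes allow. As a share of all FPKM of a library the sum was 0.372% and 0.450% in GV, 0.499%, 0.456% and 0.477% in MII with DMSO, and 0.411% and 0.428% in MII with BYBX. On that scale the direction turned, with each DMSO library above each GV and each BYBX library (exact permutation p 0.1 for both, the smallest possible), and the GV and BYBX libraries overlapped.

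The make-up of the sum differed between the groups by more than the replicates did. Prdx1 supplied 48.8% ± 0.147 (SD, n = 2) of it in GV, 88.5% ± 1.91 (SD, n = 3) in MII with DMSO and 67.5% ± 4.60 (SD, n = 2) in MII with BYBX. Prdx1 and Prdx2 together supplied 85.8%, 98.4% and 91.0%. The other 8 members summed to 263 and 254 FPKM in GV, to 6.83, 10.1 and 10.6 in MII with DMSO, and to 102 and 68.3 in MII with BYBX. These shares are taken within a library and so are not altered by its scale.

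**Figure D4:**
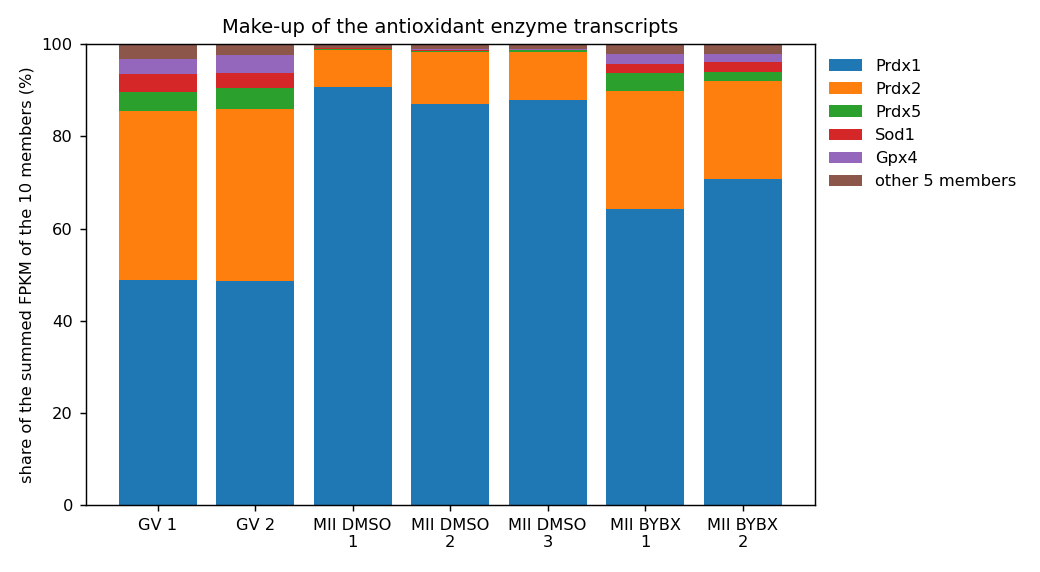
Share of the summed FPKM of the 10 members (y axis, percent) taken by Prdx1, Prdx2, Prdx5, Sod1, Gpx4 and the other 5 members together, in each of the 7 libraries. Prdx1 supplies 48.7% to 48.9% in GV, 87.0% to 90.7% in MII with DMSO and 64.2% to 70.7% in MII with BYBX.

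The members work with enzymes that recycle or supply them, and 54 such genes were listed in 7 groups. Of these, 53 were listed in the files and 36 could be tested. From GV to MII with DMSO 34 were lower (88.3% of all entries were), none was higher and 2 (Gclc, Ero1l) were not called, with a median of -1.69. With BYBX against DMSO 24 were higher (65.2% of all entries were), none lower and 12 not called, with a median of 0.85, and with BYBX against GV 25 were lower (69.2% of all entries were), none higher and 11 not called, with a median of -1.02. At equal library totals 18 were lower and 7 higher in MII with DMSO against GV, beside 4557 and 2141 of the 9202 entries. With BYBX against DMSO 11 were higher and 2 lower, beside 3672 and 756 of the 9202 entries. The directions given below for single lists are therefore those of the deposited scale. The counts of single lists, of 2 to 9 genes each, are to be read against the same shares of all entries and show nothing particular to a list. These medians lay nearer to those of all entries (-1.83, 0.84 and -0.99) than the medians of the members did, and by unadjusted p under 0.05 no further gene passed in any of the 3 comparisons.

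The list of the thioredoxin and sulfiredoxin system, parts of which reduce oxidised peroxiredoxins, named 12 genes, and 9 could be tested. These included thioredoxins and thioredoxin reductases but no sulfiredoxin, on which the counts therefore say nothing. All 9 fell from GV to MII with DMSO, and all 9 had higher levels with BYBX than with DMSO. Txn2, the mitochondrial thioredoxin, had means of 231, 18.2 and 72.7 FPKM in GV, MII with DMSO and MII with BYBX. It was the nearest but 1 to Prdx2 of all tested entries in its pattern over the 7 libraries (Euclidean distance 0.184 between centred log2 values), after Hnf4aos and before Chchd1. Txnip, which binds and inhibits thioredoxin, was at 628, 182 and 474 FPKM, and Txnl1 rose by 1.03 on the log2 scale with BYBX against DMSO (limma adjusted p 0.0022). Of the glutathione and glutaredoxin genes, 7 of 8 were lower in MII with DMSO and 5 of 8 higher with BYBX. Glrx, the cytosolic glutaredoxin, was at 820, 56.7 and 198 FPKM and the mitochondrial Glrx5 at 64.3, 0.648 and 18.4 FPKM, while Ggct, which degrades glutathione-derived dipeptides, was at 769, 460 and 514 FPKM. Gclc, the catalytic subunit of the enzyme that starts glutathione synthesis, was not called in any comparison (2.31, 1.87 and 2.21 FPKM).

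Among the genes that bear on the dismutases and Gpx4, Ccs, the copper chaperone of Sod1, had means of 13.7, 0.257 and 6.06 FPKM in the same order of groups. Its log2 changes were -3.56 (limma adjusted p 1.2e-08) for DMSO against GV and 2.44 (adjusted p 2.0e-06) for BYBX against DMSO. Ccs, Gpx1, Gpx3 and Gpx6, the 4 tested genes of its list, all fell in MII with DMSO against GV, and 2 of them were higher with BYBX. Gpx3 was at 22.0, 13.3 and 19.5 FPKM and Gpx6 at 4.83, 1.33 and 2.47 FPKM, and neither was called between BYBX and DMSO. The 5 genes of selenoprotein synthesis, on which Gpx4 depends, were all lower in MII with DMSO, and 3 were higher with BYBX. Pstk and Eefsec were at 63.3 and 33.4 FPKM in GV, at 0.658 and 0.578 in MII with DMSO and at 15.3 and 6.39 in MII with BYBX, whereas Sephs2 was at 146, 75.7 and 101 FPKM.

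From GV to MII with DMSO all 4 tested genes of NADPH supply fell, and 3 were higher with BYBX than with DMSO. G6pdx, which feeds glucose into the pentose phosphate pathway, was at 265, 10.1 and 64.0 FPKM, Me1 at 157, 18.6 and 73.9 FPKM, and Idh1 at 9.13, 2.43 and 3.87 FPKM. Of the regulators and stress-inducible enzymes all 4 tested were lower in MII with DMSO and 1, the heme oxygenase Hmox2, was higher with BYBX (36.1, 0.778 and 9.53 FPKM). Keap1, which restrains the antioxidant regulator Nrf2, was at 4.37, 2.45 and 4.15 FPKM, and Nqo1 at 7.51, 3.54 and 3.75 FPKM. Among sources of superoxide and peroxide, Xdh was at 20.4 FPKM in GV and 0.122 in MII with DMSO, and at 2.27 and 0.258 in the BYBX libraries. Its fall of -4.26 from GV to MII with DMSO was called (limma adjusted p 1.9e-08). The 0.86 of BYBX against DMSO (limma adjusted p 0.0275) was 0.17 without the first BYBX library and 1.55 without the second. That call was lost without the second DMSO library (0.79, limma adjusted p 0.0608), without either GV library and without the first BYBX library. Ero1l was at 1.08 FPKM in GV, at 0.718 in MII with DMSO and at 0.226 and 5.19 in the BYBX libraries, and was called in no comparison, but its 0.68 for BYBX against DMSO became 1.85 without the first BYBX library and -0.48 without the second, both called. Calls of lower levels in MII with DMSO against GV that ended without a single library were those of Ggct (-0.52 without the first DMSO library, limma adjusted p 0.0911), Gpx3 (-0.41 without the first GV library, adjusted p 0.189) and Keap1 (-0.46 without the first DMSO library, adjusted p 0.154), and each also lost its call without at least 1 other library. For BYBX against DMSO, Gpx6 and Idh1 were called higher without the first BYBX library (limma adjusted p 0.0062 and 0.0201) and Keap1 without the second (adjusted p 0.0141).

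By the same distance over the 7 libraries, the tested entries nearest to Gpx4 were Rps23 (0.176), Park7 (0.295) and 0610010K14Rik (0.308), and those nearest to Sod1 were Mrps17 (0.254), Usp4 (0.273) and Spcs1 (0.274). Rps23 had means of 84.5, 1.06 and 23.4 FPKM in GV, MII with DMSO and MII with BYBX, beside 65.4, 0.680 and 19.0 FPKM for Gpx4. Nearest to Prdx1 were Sertad2 (0.115), Caln1 (0.122) and Myo6 (0.128), all at under 6 FPKM in every group mean. At such levels the added 1 shrinks a change, so near entries can differ from a member in ratio. Myo6 had means of 1.91, 0.661 and 1.03 FPKM in the same order of groups, beside 885, 507 and 631 FPKM for Prdx1. Those nearest to Prdx3 were Slc38a8, Pop4 and Gm32496, to Prdx4 Dnajc4, Pate14 and Mageh1, to Prdx5 D8Ertd738e, Rpl14 and Dnajc7, to Prdx6 Trim31, Traip and Heatr6, and to Sod2 Cmc4, Mapk1ip1l and Sms, at distances of 0.161 to 0.403. A small distance describes these libraries and says nothing of shared control.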

How the data were processed

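Per the labels and the study's methods, the authors trimmed reads with Trim Galore 0.6.7, aligned them to mm10 with HISAT2 2.2.1, quantified uniquely mapped reads with Cufflinks 2.2.1 on UCSC gene models, and normalized to ERCC (100 pg per lysate) and between batches to GV samples. The deposited FPKM values came as 1 table per library, with scaling factors not given in the sources used here. No ERCC entries are listed. Depth is unknown, so precision is that of 2 or 3 libraries a group.

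Each table holds 25912 entries, of which 4 with a missing value were left out. Log2(FPKM + 1) was fitted with limma 3.58.1 in R 4.3.3 (eBayes with trend) on the 9202 entries whose mean of group means was at least 1 FPKM, with 7 libraries in 1 model of 3 groups and 4 residual degrees of freedom. Calls are Benjamini-Hochberg adjusted p under 0.05 over all entries. On simulated data of 9202 genes for BYBX against DMSO, 200 of them changed, the fit recovered 35% of 2-fold and 85% of 4-fold changes, with 3 false calls. In the data 65.2% of entries were called higher in that comparison, so these rates need not hold there. Sums over members were compared by two-sided exact permutation tests (scipy 1.17.1). Transcripts were the longest protein-coding ones of GENCODE vM21 (GRCm38).

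The members and lists were chosen with earlier results of these data known. Named genes are the members, the 3 tested entries of highest mean in each redox list, and the 3 tested entries nearest to each member by Euclidean distance over centred log2 values. Gclc, Gpx1, the genes sharing sequence with members, the Prdx1 ratios, the 50-base search and the TTTTAT search were chosen after values were seen. The fits were repeated with equal library totals, with median centring, with 0.1 as pseudocount, with no filter or one at 5 FPKM, on the compared groups alone, without the trend, with a replicate block, and without each library in turn.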

Additional observations from a re-analysis of the deposited data

How the results depend on the processing

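Of 408 fitted fold changes of members under alternatives, 378 kept direction and side of the threshold, 15 lost their call, 14 reversed and 1 gained a call, and all losses and reversals came from equal library totals or median centring. The 378 include fits that alter only the filter, the trend or the group not compared, where a fold change cannot move. For DMSO against GV, members called lower were 9, and 5 under median centring; 1 was higher at equal totals and 1 under centring (Prdx1 in both). For BYBX against DMSO, 1 member was lower at equal totals (Prdx1) and 2 under centring (Prdx1, Sod2). For BYBX against GV, 1 was lower under each (Sod1).

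The log2 changes that reversed were, at equal totals and under centring, 1.08 and 1.50 (DMSO against GV), -0.58 and -0.96 (BYBX against DMSO) and 0.50 and 0.54 (BYBX against GV) for Prdx1, -0.17 and -0.73 (BYBX against DMSO) for Sod2, and 0.29 and 0.49 (BYBX against GV) for Prdx4. Under centring alone, DMSO against GV reversed to 0.35 for Prdx4, 0.34 for Prdx6 and 0.36 for Sod2, and BYBX against DMSO to -0.38 for Prdx6. The median of all entries was -1.83, 0.84 and -0.99 as deposited, -0.56, 0.34 and -0.17 at equal totals, and 0.47, -0.44 and 0.04 under centring. Which scale is nearer to molecules per oocyte was not tested.

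Redox genes lower and higher were 18 and 7 at equal totals and 12 and 18 under centring for DMSO against GV, 2 (Ggct, Nqo1) and 11, then 15 and 9 for BYBX against DMSO, and 6 and 1 (Gpx3), then 5 (Eefsec, G6pdx, Glrx, Pstk, Xdh) and 4 (Gclc, Gpx1, Gpx3, Secisbp2) for BYBX against GV. Over all entries lower and higher were 4557 and 2141, then 2456 and 4494 for DMSO against GV (8127 and 25 as deposited), 756 and 3672, then 4040 and 1696 for BYBX against DMSO (3 and 6000), and 1222 and 488, then 1250 and 1397 for BYBX against GV (6370 and 29). The filter at 5 FPKM tested fewer entries and gave 4842 and 10 for DMSO against GV, 3686 higher for BYBX against DMSO, and 3779 and 15 for BYBX against GV, where no filter gave 58 higher.

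Leaving out each library left 9 members lower for DMSO against GV, 7 higher for BYBX against DMSO and 7 to 8 lower for BYBX against GV (8 without the first BYBX library, Prdx4). Redox genes against the main direction went from 0 to 1 for BYBX against DMSO without the second BYBX library and for BYBX against GV without the first (Ero1l in both). Redox genes lower for BYBX against GV were 17 to 25. Over all entries the few higher were 9 to 52 for DMSO against GV (9 without the second GV library, 52 without the first DMSO library) and 13 to 93 for BYBX against GV (13 without the second GV library, 93 without the second BYBX library), and the few lower 3 to 15 for BYBX against DMSO (15 without the first DMSO library).

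The summed FPKM as a ratio of group means was 0.315 (DMSO to GV), 1.64 (BYBX to DMSO) and 0.517 (BYBX to GV), 1.16, 0.879 and 1.02 at equal totals, and 0.0709, 4.67 and 0.331 without Prdx1. The share of the total without Prdx1 gave 0.259, 2.50 and 0.646, an alternative added after seeing the data, and the share of BYBX to GV was 0.933 without the first GV library and up to 1.13 without the second. With runs of at least 2 G, 10 members held the rG4 motif.

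Nothing in the labels ties same-numbered libraries to a shared animal or day, and with 2 shared numbers per comparison the data cannot settle it. Same-numbered deviations correlated at 0.487 and 0.282 (DMSO and GV), -0.601 and -0.348 (BYBX and DMSO) and -0.330 (BYBX and GV), and the libraries were treated as sharing only a number. With the replicate number as a block the entries higher in DMSO than in GV went from 25 to 14, and no call of a member changed. With the BYBX numbers crossed, added after seeing the data, 7 members and 6688 entries were lower than in GV and 57 higher.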
